A study of Mus musculus with 4 samples.

Results

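Small nucleolar RNA (snoRNA) host genes carry snoRNAs in their introns, and in the noncoding members of this class the spliced exons make no known stable protein. The 9 genes considered here, named by symbol, were Gas5, Snhg1, Snhg3, Snhg5, Snhg6, Snhg8, Snhg12, Snhg15 and Zfas1. They were to be read by genotype and cell class in the count tables of all 4 libraries. Counts were analysed for 3 of these 9, Snhg6 (ENSMUSG00000098234), Snhg12 (ENSMUSG00000086290) and Zfas1 (ENSMUSG00000074578, which the tables call by an older symbol), out of 27998 genes in the tables. The other 6 had no entry in the count tables and could not be analysed. Cells were selected on a measured value, the share of alpha-defensin UMIs, which sets the classes, and the counts of the hosts had no part in that step.

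The snoRNAs released from the debranched introns guide the methylation and pseudouridylation of ribosomal RNA, so the host genes are transcribed together with the supply of ribosome parts. Many host RNAs begin with a cytosine followed by a run of pyrimidines, the terminal oligopyrimidine (TOP) start that they share with ribosomal protein mRNAs and that ties translation to mTORC1. Spliced noncoding hosts are exported and scanned by ribosomes, and because their short open reading frames end early they are known targets of nonsense-mediated decay, which works only while translation runs. SLC7A5 imports leucine and other large neutral amino acids, an input of mTORC1, and Paneth cells are the granule-filled secretory cells of the crypt base that make alpha-defensins.

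The annotated starts of the 3 hosts are shown first, because the TOP start is the feature that links such hosts to the ribosomal protein genes with which they are compared. Each line gives the first bases of 1 spliced transcript, picked as the annotated transcript of that gene with the longest such run. They are written 5′ to 3′ from GENCODE M21 on GRCm38, with the opening pyrimidine run in capitals.
Snhg6-203: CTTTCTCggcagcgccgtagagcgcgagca
Snhg12-208: CCTTTCTCgcttcatccgcggtccctgtct
Zfas1-202: CCTTTCgttccggcggctcctagagcgttt
The runs were 7, 8 and 6 bases long. Such a start, a C opening a run of at least 5 pyrimidines, was carried by 1 of 5 annotated transcripts of Snhg6, 3 of 10 of Snhg12 and 1 of 5 of Zfas1. At least 1 transcript began in this way in 35 of 82 ribosomal protein genes (42.7%) and in 2033 of 27645 genes of the tables with an entry (7.35%). Among the 8753 genes with 5 or more annotated transcripts it was 1300 (14.9%). These are letters of an annotation and do not show which start the crypt cells used.

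Snhg6 lies on chromosome 1 (chr1:9941959-9944118, minus strand) and holds Snord87. Snhg12 lies on chromosome 4 (chr4:132308623-132311024, plus strand) and holds 5 annotated snoRNA entries, namely Snora16a, which is entered more than once, Snora44, Snora61 and Snord99. Zfas1 lies on chromosome 2 (chr2:167062934-167065862, plus strand) and holds Gm25878, Gm23201 and Snord12. The C/D snoRNAs of the 3 hosts are printed here as the intronic product of each gene, with the C box TGATGA and the D box CTGA in capitals.
Snord87: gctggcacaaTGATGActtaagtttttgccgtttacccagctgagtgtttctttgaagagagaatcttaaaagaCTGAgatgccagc
Snord99: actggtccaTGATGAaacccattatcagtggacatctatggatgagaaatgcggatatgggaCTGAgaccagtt
Gm25878: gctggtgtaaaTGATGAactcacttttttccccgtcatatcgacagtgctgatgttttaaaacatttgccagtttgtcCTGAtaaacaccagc
Gm23201: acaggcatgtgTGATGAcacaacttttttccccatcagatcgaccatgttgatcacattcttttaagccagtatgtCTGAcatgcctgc
Snord12: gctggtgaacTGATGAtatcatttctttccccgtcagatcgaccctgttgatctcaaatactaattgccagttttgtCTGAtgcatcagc
The 3′ kit captured polyadenylated RNA, so the values that follow are those of the spliced host transcripts and say nothing of the level of the snoRNAs.

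The cells were live EpCAM-positive, CD45-negative epithelial cells sorted from small intestinal crypts of mice aged 8 weeks. Of the 4 libraries, 2 were labelled Slc7a5 fl/fl, with both alleles floxed, and 2 were labelled Slc7a5 IEC-KO, in which Cre under the villin promoter deletes exon 1 of the floxed gene throughout the intestinal epithelium and not in Paneth cells alone. The labels name 4 mice without saying how they were divided over the libraries, so p-values measure the spread between these libraries, which may be technical. There were 3633 and 3217 cells in the Slc7a5 fl/fl libraries, with a median of 22242 and 32549 UMIs per cell (unique molecular identifiers, each standing for 1 captured transcript), and 10004 and 9644 cells in the Slc7a5 IEC-KO libraries, with 6699.5 and 9717.5. Between 14 and 132 cell barcodes were shared by any pair of libraries. Slc7a5 itself was counted higher in the IEC-KO libraries (in Paneth cells 1.19 and 1.07 CPM against 3.18 and 3.79, where CPM is the TMM-scaled number of UMIs per 1000000 UMIs), but the 3′ tags lie outside the deleted exon, so this count checks no label.

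Cells in which alpha-defensin genes (symbols starting with Defa) took 30% or more of UMIs were read as Paneth cells, 2102 and 2007 in the fl/fl and 2830 and 3122 in the IEC-KO libraries. Cells under 20% were read as other cells, 1449 and 1127 against 6266 and 5709, and the 82, 83, 908 and 813 cells between these limits were left out. A set of 12 Paneth markers outside the defensins, led by lysozyme, took 179719 and 186890 of every 1000000 UMIs outside Defa (written CPM outside Defa) in the fl/fl Paneth cells, and 115029 and 136738 in the IEC-KO Paneth cells. In other cells the same markers took 22353 to 24777 CPM outside Defa, so the class carried the markers of its name in both genotypes. The 14 goblet markers took 99066 and 104078 CPM outside Defa in fl/fl Paneth cells against 110638 and 120968 in IEC-KO ones, and 90.3% and 89.8% of fl/fl but 74.9% and 80.9% of IEC-KO Paneth cells fell in clusters called Paneth-like from their markers. The stromal markers were at 0, and the immune markers summed to at most 1.13 CPM outside Defa in Paneth cells, with Cd3g, Cd3e and Cd7 at 0. The part of the goblet markers in the results was not tested, and the hosts are also given for cells that met both the rule and the cluster.

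In Paneth cells all 3 hosts were several times higher in the libraries labelled Slc7a5 IEC-KO. Zfas1, the host that is antisense to the 5′ end of Znfx1, was counted at 24.6 and 24.8 CPM in the fl/fl libraries and at 95.7 and 91.7 CPM in the IEC-KO libraries. The means were 24.7 ± 0.184 and 93.7 ± 2.84 CPM (SD, n = 2 each), a log2 fold change of 1.92 (SE 0.07, adjusted p = 1.07e-12 in edgeR) or 3.79-fold. Both IEC-KO libraries thus stood far above both fl/fl libraries, and the spread within a genotype was a small part of the distance. Snhg12 was at 3.74 and 3.35 CPM against 17.4 and 14.4 CPM. Its mean rose from 3.54 ± 0.274 to 15.9 ± 2.13 CPM (SD, n = 2 each), a log2 fold change of 2.16 (SE 0.10, adjusted p = 4e-11 in edgeR) or 4.46-fold. Snhg12 moved most of the 3, and its groups did not overlap either. Snhg6 was the host with the fewest UMIs, 164 and 164 against 241 and 496, which came to 2.11 and 2.07 CPM against 4.79 and 5.82 CPM. The means were 2.09 ± 0.0233 and 5.30 ± 0.722 CPM (SD, n = 2 each), a log2 fold change of 1.36 (SE 0.12, adjusted p = 1.03e-07 in edgeR). The IEC-KO libraries lay above the fl/fl ones again. Separation of this kind was common, since 35.2% of the genes tested in Paneth cells were higher in IEC-KO without overlap of the libraries.

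**Figure D1:**
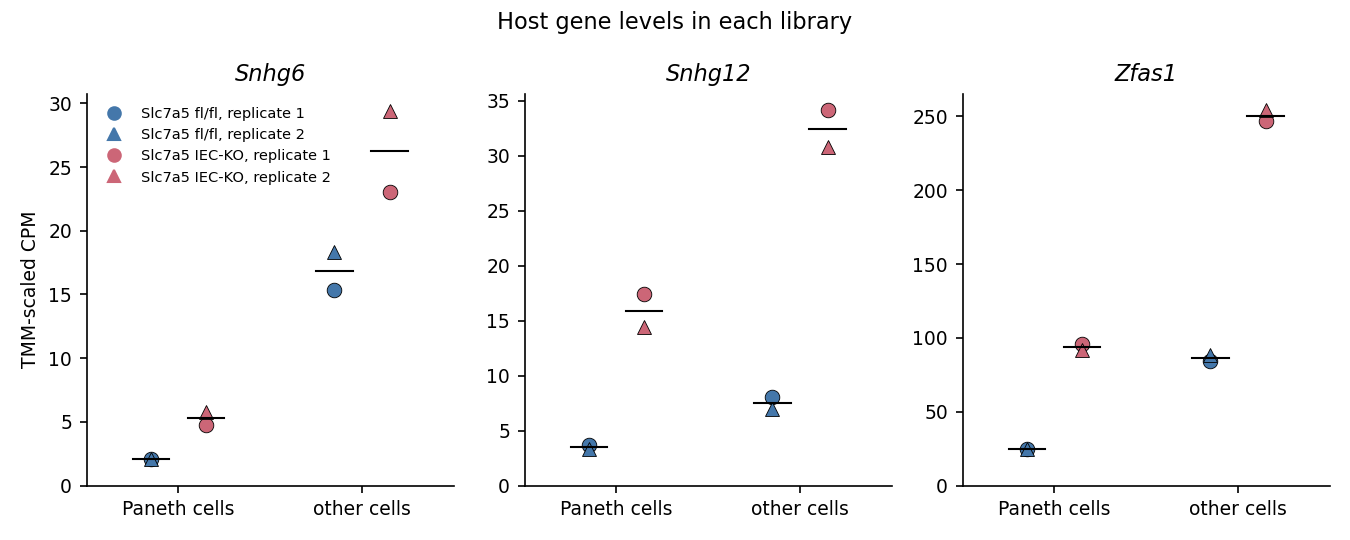
TMM-scaled CPM of Snhg6, Snhg12 and Zfas1 on a linear axis from 0, with 1 point for each library (fl/fl blue, IEC-KO red, circles for replicate 1 and triangles for replicate 2) and a line at the mean of each genotype, in Paneth cells and in other cells. In Paneth cells Zfas1 sits at 24.6 and 24.8 CPM in fl/fl and at 95.7 and 91.7 CPM in IEC-KO, and no host has overlapping genotypes in either class.

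Of the 12696 genes tested in Paneth cells, 21.2% were called higher and 21.0% lower in IEC-KO at an adjusted p under 0.05, so a call alone was common. The size of the change was less so, with 124 genes (0.977%) showing a larger log2 fold change than Snhg12, 160 (1.26%) a larger one than Zfas1 and 288 (2.27%) a larger one than Snhg6. The hosts were chosen with earlier results of these data known, so these ranks are a description and no independent support. Scaling by library size alone moved the median of all genes by 0.70 on the log2 scale and turned the split into 9465 higher and 424 lower calls. Under that scaling the hosts stood at 2.06 (Snhg6), 2.86 (Snhg12) and 2.62 (Zfas1), still 1.36 to 2.16 above the median. In cells that met the rule and also lay in a Paneth-like cluster, a setting chosen after seeing the data, the changes were 1.34, 2.22 and 1.96.

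Per Paneth cell, host counts were level or higher in IEC-KO although the cells held fewer UMIs in all. A Paneth cell of the fl/fl libraries held on average 45591 and 51937 UMIs, and one of the IEC-KO libraries 14165 and 21108. Zfas1 gave 0.910 and 0.979 UMIs per fl/fl Paneth cell against 1.70 and 2.50 per IEC-KO cell. Snhg12 gave 0.138 and 0.132 against 0.310 and 0.394, and Snhg6 0.0780 and 0.0817 against 0.0852 and 0.159. The libraries differed in depth as well as in cell content, and these cannot be told apart here.

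Ribosomal protein genes, the TOP mRNAs with which the hosts were set, also rose in the same Paneth cells, by less. Of 82 ribosomal protein genes 81 were called higher and 0 lower, with a median log2 fold change of 0.85 and a range of 0.21 to 1.31. Rpl12 (1.31) and Rps24 (1.30), proteins of the large and the small subunit, rose most, and Rps27l (0.25) and Rps2 (0.30) rose least among those called. No ribosomal protein gene changed as much as any of the 3 hosts, although Snhg6 (1.36, SE 0.12) exceeded Rpl12 by less than its SE. Summed, ribosomal protein genes took 4.15% and 4.01% of Paneth cell UMIs in the fl/fl libraries and 12.0% and 11.9% in the IEC-KO libraries.

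Counted per 1000 ribosomal protein UMIs of the same cells, the hosts remained higher in IEC-KO. Zfas1 stood at 0.481 and 0.470 in fl/fl Paneth cells and at 0.997 and 1.00 in IEC-KO ones, a log2 difference of 1.07 (SE 0.06, adjusted p = 5.63e-10 in edgeR with the ribosomal protein sum as offset). Snhg12 stood at 0.0731 and 0.0634 against 0.182 and 0.157, a difference of 1.31 (SE 0.10, adjusted p = 1.09e-08). For both hosts the change was thus more than that of the summed ribosomal protein UMIs. Snhg6 stood at 0.0412 and 0.0393 against 0.050 and 0.0635, a difference of 0.51 (SE 0.14, adjusted p = 0.00239). The distance of Snhg6 from the ribosomal protein genes rested in part on IEC-KO replicate 2, since without it the difference was 0.31 and was no longer called (adjusted p = 0.062). On this scale 2.54% of 12696 genes were called higher and 84.3% lower.

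Outside the Paneth class the hosts were also higher in IEC-KO. In other cells 16.1% of 12323 genes were called higher and 15.8% lower. Zfas1 was at 84.3 and 88.7 CPM in the fl/fl libraries and at 246.8 and 253.9 CPM in the IEC-KO libraries, a log2 fold change of 1.53 (SE 0.07, adjusted p = 1.04e-11). Snhg12 was at 8.10 and 7.01 CPM against 34.1 and 30.8 CPM, a log2 fold change of 2.09 (SE 0.10, adjusted p = 2.88e-11). Snhg6 was at 15.3 and 18.3 CPM against 23.0 and 29.4 CPM, with a log2 fold change of 0.65 (SE 0.11, adjusted p = 0.000202). None of the 3 overlapped between genotypes, as was so for 32.9% of all genes tested here in the same direction, and Snhg6 had a gap of the same order as the spread within each genotype.

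The ribosomal protein genes of the other cells rose by a median of 0.39, with 76 called higher and 1 called lower. The 1 called lower was Rps2 (log2 fold change −0.29, adjusted p = 0.00376), a snoRNA host itself. The lowest log2 fold change among the 82, −0.58, was not called. Per 1000 ribosomal protein UMIs, where 3.95% of genes were called higher and 60.5% lower, Snhg12 stood at 0.0430 and 0.0372 against 0.136 and 0.125 (log2 difference 1.69, SE 0.10, adjusted p = 3.24e-08). Zfas1 stood at 0.448 and 0.470 against 0.985 and 1.03 (1.13, SE 0.06, adjusted p = 1.82e-08). These values are close to those of Zfas1 in Paneth cells in both genotypes. Snhg6 stood at 0.0815 and 0.0970 against 0.0920 and 0.119, values that overlapped, and its difference of 0.25 (SE 0.12) was not called (adjusted p = 0.0861).

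The genotype effect in Paneth cells was then tested against that in other cells, with library as a block. Of 12984 genes, 12.6% had a larger and 12.0% a smaller effect in Paneth cells. The effect was larger in Paneth cells for Snhg6, by 0.71 on the log2 scale (SE 0.12, adjusted p = 2.44e-06), and for Zfas1, by 0.40 (SE 0.06, adjusted p = 2.68e-07). With all cells thinned to 2000 UMIs the difference of Snhg6 was 0.38 and was no longer called (adjusted p = 0.726). Few UMIs of Snhg6 remained after thinning, so the test had little power there. For Snhg12 the difference was 0.07 (SE 0.12, adjusted p = 0.745), and its sign turned with 1 lower limit on UMIs for all libraries (−0.17, adjusted p = 0.442) and with the Defa symbols as the tables write them (−0.19, adjusted p = 0.288). It was called larger in Paneth cells when library size alone was used (0.89, adjusted p = 1.67e-08) and when Paneth-like clusters stood in for the rule (0.55, adjusted p = 0.000246). Of the ribosomal protein genes, 80 of 82 had a larger effect in Paneth cells, with a median of 0.51, which lies between the values of Zfas1 and Snhg6.

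Further genes listed as noncoding snoRNA hosts moved in both directions, although in GENCODE M21 Snhg20 holds no snoRNA and Snhg11 is entered as protein-coding. Of 12 on a list of further hosts, 5 had counts, and 4 could be tested in Paneth cells, where 1 was called higher and 2 lower. Epb41l4aos was at 6.77 and 6.88 CPM against 13.4 and 13.3 CPM in Paneth cells (log2 fold change 0.96, adjusted p = 2.57e-08) and was higher in other cells too (0.76, adjusted p = 1.35e-06). Snhg18, the host of Snord123, was at 89.4 and 87.4 CPM against 60.5 and 69.0 CPM (−0.45, adjusted p = 0.00011), and Snhg20 was at 11.4 and 10.8 CPM against 8.73 and 7.77 CPM (−0.44, adjusted p = 0.000374). These falls, with that of Snhg9 (−0.34, adjusted p = 0.0505), turned to rises with library size alone, where Snhg18 stood at 0.25, Snhg20 at 0.26 and Snhg9 at 0.35, all below the shift of 0.70 of the median gene. In other cells Snhg18 was slightly higher (0.23, adjusted p = 0.0438), and Snhg9 (0.39) and Snhg20 (−0.17) were not called. The genotype effect was smaller in Paneth than in other cells for Snhg9 (−0.74), Snhg18 (−0.66) and Snhg20 (−0.26, adjusted p = 0.0488). Snhg11 had at most 4 UMIs in a library of either class and was not tested.

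Each protein-coding snoRNA host tested in Paneth cells had a smaller log2 fold change than Snhg6, Snhg12 and Zfas1. For Snhg6 (1.36, SE 0.12) the highest of them, Rpl12 and Hspa9, came within its SE. Of the 22 ribosomal protein genes that host snoRNAs, all 22 were called higher in Paneth cells, with a median of 0.90 beside 0.85 for all 82. Among these Rpl12 (1.31) rose most, and Rps2 (0.30) and Rpl7a (0.44) least. Of 20 other protein-coding hosts 14 were called higher and 0 lower, with a median of 0.45. Hspa9, a mitochondrial chaperone, rose from 33.8 and 33.1 CPM to 84.5 and 79.5 CPM (1.29, adjusted p = 1.66e-10), and Tpt1, a TOP mRNA, from 366 and 372 CPM to 848 and 750 CPM (1.11, adjusted p = 4.08e-08). The elongation factor Eef2 (0.29) and the initiation factor Eif4a1 (0.30) rose least among those called.

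TOP mRNAs of the translation machinery other than ribosomal proteins numbered 16, of which 12 were called higher and 1 lower in Paneth cells, with a median of 0.53. The elongation factor Eef1a1 rose from 572 and 585 CPM to 1224 and 1116 CPM (1.02, adjusted p = 1.8e-07). Hnrnpa1, a splicing regulator, was the 1 called lower, from 30.9 and 33.4 CPM to 20.7 and 20.7 CPM (−0.64, adjusted p = 1.06e-06). With library size alone it stood at 0.06 and was not called.

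Part of the proteins that bind and assemble snoRNAs and of the decay factors rose too, and differences between lists were not tested. Of all genes tested in Paneth cells, 21.2% were called higher by edgeR. Of 17 snoRNP proteins and assembly factors 12 were called higher and 0 lower, with a median of 0.27. The C/D core proteins Nop56 (10.0 and 10.8 CPM against 19.7 and 19.6 CPM, 0.92, adjusted p = 3.05e-08) and Nop58 (0.91, adjusted p = 2.86e-07), both snoRNA hosts as well, rose most. The H/ACA proteins Nhp2 (0.20) and Nop10 (0.22) rose least among those called. Of 17 nonsense-mediated decay factors 7 were called higher and 0 lower, with a median of 0.19. Magohb, a subunit of the exon junction complex (0.82, adjusted p = 1.67e-06), and Upf3a (0.76, adjusted p = 8.35e-06) rose most, and Magoh (0.19) and Rnps1 (0.22) least. With DESeq2 fewer were called higher, 9 of the 17 snoRNP proteins and 4 of the 17 decay factors.

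In other cells, where 16.1% of all genes were called higher and 15.8% lower, the same lists gave 19 of 22 ribosomal protein hosts called higher and 1 lower (median 0.41), 8 of 20 other protein-coding hosts higher and 1 lower (median 0.13), and 9 of 16 TOP translation mRNAs higher and 1 lower (median 0.22). Of the snoRNP proteins 1 of 17 was called higher and 1 lower (median 0.06), and of the decay factors 3 of 17 higher and 0 lower (median 0.08), so the share of decay factors called higher was close to that of all genes. With library size alone, which moved the median gene of other cells by −0.13, no decay factor was called higher and 3 were called lower.

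**Figure D2:**
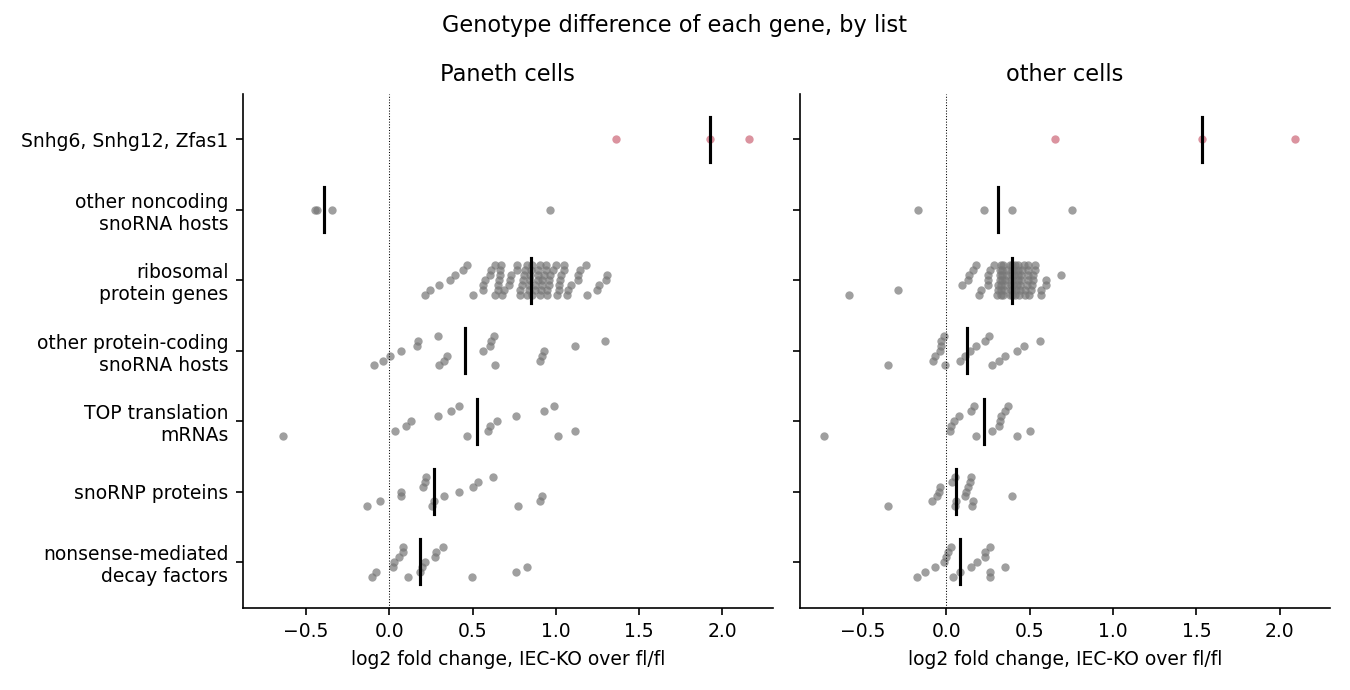
Log2 fold change of each gene between IEC-KO and fl/fl libraries by gene list, in Paneth cells and in other cells, with 1 point for each gene and a bar at the list's median. The 3 noncoding hosts lie at 1.36 to 2.16 in Paneth cells, above the ribosomal protein genes, whose median is 0.85.

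The same comparison in classes named from markers gave the levels by cell type. In goblet-like cells, the mucus-secreting cells, 9.94% of 10550 genes were called higher and 9.76% lower. Zfas1 was at 52.7 and 56.0 CPM in fl/fl and at 248.6 and 258.5 CPM in IEC-KO goblet-like cells (log2 fold change 2.22, SE 0.08, adjusted p = 5.95e-17). Snhg12 was at 6.87 and 5.98 CPM against 31.7 and 29.6 CPM (2.24, SE 0.14, adjusted p = 9.25e-12), and Snhg6 at 12.4 and 13.3 CPM against 21.4 and 28.2 CPM (0.97, SE 0.15, adjusted p = 2.92e-05). All 3 hosts were higher without overlap, as were 29.4% of all genes tested in this class. Most fl/fl goblet-like cells lay in the cluster led by C2cd4a and Serpina1b, and most IEC-KO ones in the clusters led by Hsd17b2 and Gsta4. The class thus differed in makeup between genotypes, and the Hsd17b2 cluster held 0 fl/fl cells. In the Gsta4 and C2cd4a clusters, held by both genotypes, Zfas1 was 2.03 and 1.56 times as high in IEC-KO by mean CPM outside Defa. Snhg12 was 2.45 and 1.83 times as high there, with overlap of the libraries in the C2cd4a cluster.

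In TA-like cells, the dividing transit amplifying cells, Zfas1 rose from 119.0 and 120.2 CPM to 172.4 and 192.5 CPM (0.61, SE 0.08, adjusted p = 1.61e-05) and Snhg12 from 10.9 and 9.11 CPM to 21.1 and 20.1 CPM (1.03, SE 0.14, adjusted p = 6.32e-05). Snhg6 was at 21.3 and 25.1 CPM against 25.4 and 28.8 CPM and was not called (0.24, adjusted p = 0.269). In this class 4.14% of 10746 genes were called higher and 2.40% lower. Taken over the whole class the hosts changed by less than in goblet-like cells, whose clusters differed between genotypes. Within clusters held by both genotypes the ranges met. There Zfas1 was 1.36, 1.67 and 2.69 times as high in IEC-KO in TA-like and 2.03 and 1.56 times in goblet-like clusters. For Snhg12 these ratios were 1.97, 2.37 and 2.20 against 2.45 and 1.83. In enterocyte-like cells, with 2.01% of 8843 genes called higher and 0.848% lower, Zfas1 rose from 76.0 and 78.6 CPM to 135.6 and 157.5 CPM (0.93, SE 0.12, adjusted p = 1.41e-05). Snhg12 rose from 4.84 and 4.07 CPM to 13.9 and 20.0 CPM (1.93, SE 0.31, adjusted p = 0.000185), from sums of 13 and 9 UMIs in the fl/fl libraries. Snhg6 was at 11.2 and 14.0 CPM against 16.04 and 20.9 CPM (0.58, adjusted p = 0.236). Differences of the genotype effect between these named classes were not tested.

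In tuft-like cells, of which the smallest library held 14, 0 of the 3 hosts was called by edgeR or by DESeq2 (0.921% of 4559 genes were called higher by edgeR). Without adjustment 2 of the 3, Zfas1 and Snhg12, were higher with a p under 0.05 in edgeR, as were 275 of the 4559 genes. Zfas1 was at 84.5 and 196.2 CPM against 242.3 and 306.7 CPM (log2 fold change 0.90, adjusted p = 0.152). Snhg12 was at 10.6 and 11.3 CPM against 27.2 and 29.4 CPM (1.35, adjusted p = 0.333), and Snhg6 at 15.8 and 15.1 CPM against 27.2 and 35.8 CPM (1.03, adjusted p = 0.452). Zfas1 was called without fl/fl replicate 2 (1.72, adjusted p = 1.17e-05) and without IEC-KO replicate 1 (1.12, adjusted p = 0.0165), so its call there turned on single libraries of few cells. Enteroendocrine-like cells outside the Paneth rule numbered 14 and 8 in the fl/fl libraries and were not tested. At 26 and 11 UMIs of Zfas1 in the fl/fl and 159 and 124 in the IEC-KO libraries, the depth there allowed no comparison of the scarcer hosts.

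Across classes of the fl/fl libraries, levels in CPM outside Defa put Zfas1 highest in tuft-like (156.8 ± 87.9), enteroendocrine-like (130.5 ± 33.6) and TA-like cells (130.3 ± 0.975), values that did not differ beyond their spread. Other classes followed in the order enterocyte-like (82.9 ± 2.23), goblet-like (59.0 ± 2.04) and Paneth cells (45.6 ± 0.107, all SD, n = 2). In the IEC-KO libraries the order was different, with tuft-like (278.9 ± 38.0) and goblet-like cells (271.6 ± 10.9) highest and overlapping, Paneth cells at 228.5 ± 2.98 beside enteroendocrine-like cells at 227.1 ± 39.0, then TA-like (189.1 ± 13.5) and enterocyte-like cells (153.3 ± 16.3). On this scale Paneth and goblet-like cells, the secretory classes with the lowest fl/fl levels, stood above the TA-like and enterocyte-like cells in IEC-KO. The goblet-like mean of IEC-KO included the Hsd17b2 cluster, with 0 fl/fl cells and Zfas1 at 321.4 and 324.8. In the Gsta4 and C2cd4a clusters the IEC-KO means were 145.8 and 89.8, below the TA-like mean. Cells of the unnamed clusters were left out of these orders and stood at 92.0 ± 12.2 in fl/fl and at 274.8 ± 17.6 in IEC-KO. Per 1000 ribosomal protein UMIs, fl/fl Paneth (0.475) and enterocyte-like cells (0.474) were level, and goblet-like cells lowest (0.325). In IEC-KO, Paneth (0.999) and goblet-like cells taken as a whole class (1.11) exceeded TA-like (0.698) and enterocyte-like cells (0.754). By goblet-like cluster, the IEC-KO libraries stood at 1.27 and 1.30 in the Hsd17b2 cluster. They stood at 0.684 and 0.714 in the Gsta4 cluster and at 0.324 and 0.547 in the C2cd4a cluster. The classes were cut from the same counts, so these orders are a description and were not tested. CPM outside Defa leaves out only symbols starting with Defa. Other genes leading the main fl/fl Paneth-like cluster, such as Gm15292 and Gm14851, thus stay in its total. In Paneth cells the rises on this scale were larger than those of TMM-scaled CPM, 3.79-fold for Zfas1 and 4.46-fold for Snhg12.

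Snhg12 and Snhg6 had other orders, given without the enteroendocrine-like cells, of which 1 library held 8, and without the unnamed clusters, where Snhg12 stood at 9.66 ± 0.565 in fl/fl and 35.7 ± 1.15 in IEC-KO. In fl/fl libraries Snhg12 was at 12.2 ± 0.569 CPM outside Defa in tuft-like, 10.9 ± 1.40 in TA-like and 6.98 ± 0.736 in goblet-like cells. It was at 6.54 ± 0.539 in Paneth and 4.78 ± 0.574 in enterocyte-like cells. On this scale goblet-like and Paneth cells did not differ beyond their spread. In IEC-KO libraries it was highest in Paneth (38.8 ± 3.53) and goblet-like cells (32.8 ± 1.21) and lowest in TA-like (21.4 ± 0.875) and enterocyte-like cells (17.7 ± 4.47). The goblet-like mean of IEC-KO again included the Hsd17b2 cluster, with 0 fl/fl cells and Snhg12 at 42.9 and 36.7. In the Gsta4 and C2cd4a clusters the IEC-KO means of Snhg12 were 17.3 and 12.4, below the TA-like mean. Snhg6 was highest in TA-like cells of the fl/fl libraries (25.3 ± 2.96) and lowest in Paneth cells in both genotypes (3.86 ± 0.0627 and 13.0 ± 2.32, all SD, n = 2). Per 1000 ribosomal protein UMIs the fl/fl order of Snhg12 was different, with Paneth cells highest (0.0683 ± 0.00683). Tuft-like (0.0520 ± 0.00150), TA-like (0.0441 ± 0.00587), goblet-like (0.0384 ± 0.00407) and enterocyte-like cells (0.0273 ± 0.00267, all SD, n = 2) followed.

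**Figure D3:**
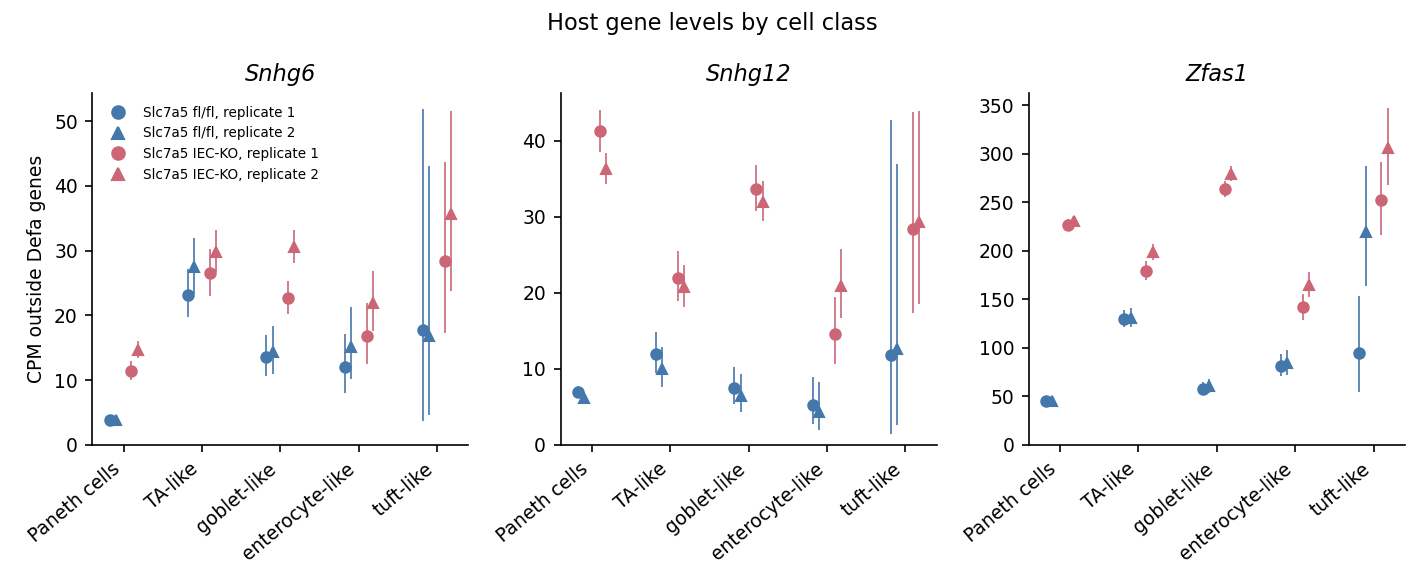
CPM outside Defa genes of each host on a linear axis from 0 in 5 cell classes, with 1 point for each library (fl/fl blue, IEC-KO red) and bars for the 95% interval of the counts. Zfas1 rises from a mean of 45.6 to 228.5 in Paneth cells and from 59.0 to 271.6 in goblet-like cells, and less in TA-like cells, from 130.3 to 189.1. In Paneth cells the rise on this scale is larger than by TMM-scaled CPM (24.7 to 93.7). The goblet-like class differed in cluster makeup between genotypes.

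Clustering of all cells gave 20 clusters, of which 10 held at least 10 cells of every library. In these 10, the IEC-KO libraries lay above the fl/fl libraries without overlap for Zfas1 in 10, for Snhg12 in 9 and for Snhg6 in 6. Over the genes with at least 10 UMIs in a cluster the share that was higher in this way was 24.5%, and it ran from 14.7% to 36.1% by cluster. The mean level of Zfas1 in CPM outside Defa was 1.36 to 2.92 times as high in IEC-KO in these clusters. At the lower end was the TA-like cluster led by Jaml and Cps1 (172.8 against 235.7), and at the upper end the enterocyte-like cluster led by Fabp6 and Slc51b, genes of bile acid uptake and export (67.7 against 197.6). Snhg6 was not higher in that TA-like cluster (ratio 0.940). The rise of Zfas1 was thus present within clusters shared by the genotypes, and these comparisons carry no test.

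No Paneth-like cluster was shared in this way. Of the fl/fl Paneth-like cells 1855 and 1766 lay in the cluster led by Gm15292 and Defa29, where Snhg12 was at 6.87 and 6.09, Zfas1 at 44.7 and 43.7 and Snhg6 at 3.70 and 3.28 CPM outside Defa. The IEC-KO Paneth-like cells fell in a defensin-rich cluster led by Defa27 and Defa28 (1389 and 2230 cells) and a cluster led by the trypsinogen Try5 (1306 and 723 cells), in which Snhg12 itself and Trib3, a target of the stress factor ATF4, were among the 10 leading genes. No Paneth marker was among the 10 leading genes of the fl/fl cluster or of the Try5 cluster, which were named from 6 and 5 of the 12 markers. Zfas1 was at 201.3 and 225.4 CPM outside Defa in the first and at 422.6 and 460.6 in the second. Snhg12 was at 36.6 and 35.0 in the first and at 93.0 and 86.7 in the second, and Snhg6 at 9.93 and 13.4 against 15.98 and 25.2. Both IEC-KO clusters stood above the fl/fl cluster for each host, and the Try5 cluster stood above the defensin-rich one. These values cover all cells of a cluster, and only 53.3% of the Try5 cluster met the Paneth rule (median Defa share 31.2%). In the defensin-rich and the fl/fl cluster 98.2% and 99.97% of cells met it, so the clusters do not compare Paneth cells by the rule alone. Ribosomal protein genes took 21.7% and 22.7% of UMIs outside Defa in the defensin-rich and 26.9% and 27.9% in the Try5 cluster, against 9.15% and 9.35% in the fl/fl cluster. The hosts were left out of the genes used for clustering, and Snhg12 was ranked as a leading gene of the Try5 cluster only afterwards. Its level there is a description and was not tested. With the 2 clusters led in part by Trib3 left out, a setting chosen after seeing the data, the hosts changed in Paneth cells by 1.29 (Snhg6), 1.99 (Snhg12) and 1.80 (Zfas1), all called.

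**Figure D4:**
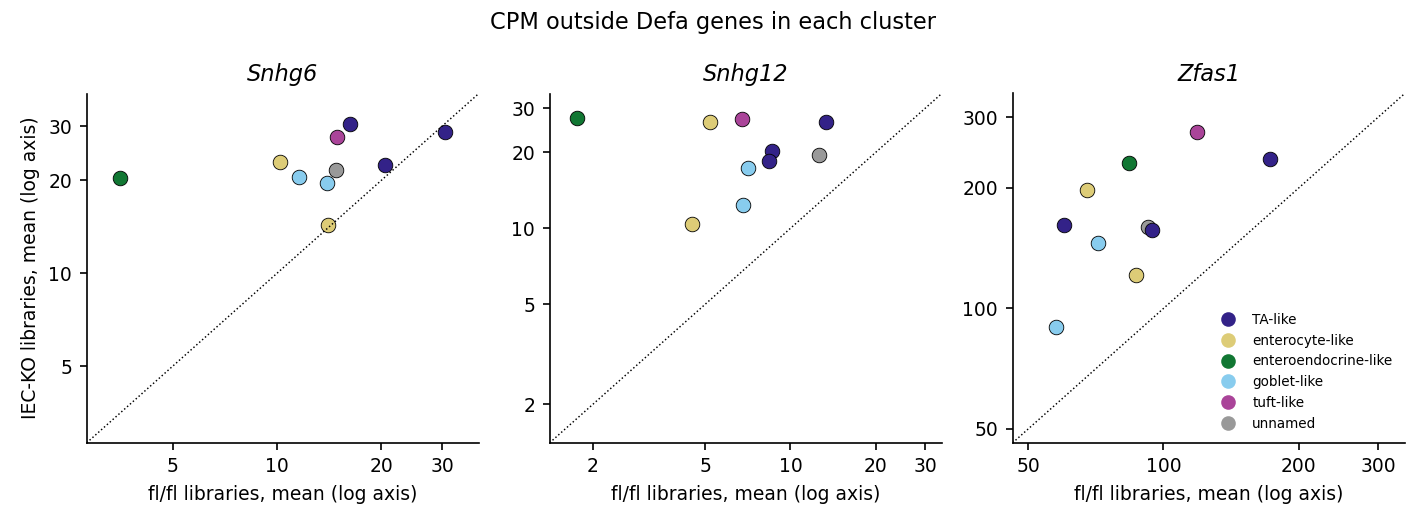
Mean CPM outside Defa genes of each host in the IEC-KO libraries (vertical, log axis) against that in the fl/fl libraries (horizontal, log axis), with 1 point for each of the 10 clusters that hold at least 10 cells of every library, coloured by class, and a dotted line where both are equal. All 10 points of Zfas1 lie above the line, with the TA-like cluster led by Jaml and Cps1 at 172.8 in fl/fl and 235.7 in IEC-KO, whereas the Snhg6 point of that cluster lies below it.

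The Paneth cells of each library were next split into 4 bins of equal cell number by their share of ribosomal protein UMIs, to see how the hosts vary with these genes among cells of 1 library. The 3 hosts summed gave, in CPM outside Defa and ribosomal protein genes, 51.7 and 52.6 in the lowest and 74.2 and 82.3 in the highest bin of the fl/fl libraries. In the IEC-KO libraries they gave 239.1 and 273.1 in the lowest and 556.6 and 536.7 in the highest bin. The ratios of highest to lowest bin were 1.43 (95% interval from counting error alone, 1.27 to 1.61) and 1.56 (1.39 to 1.76) in fl/fl and 2.33 (2.16 to 2.51) and 1.97 (1.86 to 2.08) in IEC-KO. The sum rose at each step from bin to bin in 3 of the 4 libraries, the exception being fl/fl replicate 1 (62.7 and 62.4 in the middle bins). The lowest bin of IEC-KO cells, with a median of 8.75% and 8.95% ribosomal protein UMIs, stood above the highest bin of fl/fl cells, with 5.29% and 5.10%.

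Other properties moved along the same split. The median share of Defa UMIs fell from 56.3% and 56.8% in the lowest to 34.7% and 35.3% in the highest bin of the IEC-KO libraries, and the median UMIs per cell fell from 18038.5 and 28295 to 8618 and 12300.5. When each cell was first thinned to 2000 UMIs, the ratio was 2.36 and 1.87 in IEC-KO but 0.905 (0.514 to 1.59) and 1.07 (0.663 to 1.71) in fl/fl, where the intervals then held 1. A link between hosts and ribosomal protein share in fl/fl Paneth cells was therefore not detectable at that depth.

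**Figure D5:**
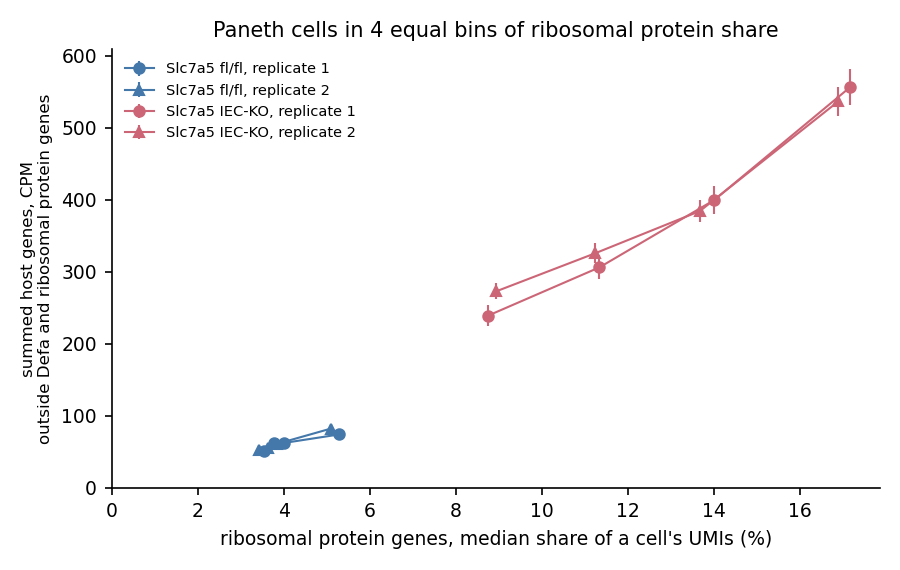
Summed CPM outside Defa and ribosomal protein genes of Snhg6, Snhg12 and Zfas1 (vertical) against the median share of ribosomal protein UMIs (horizontal, in percent) in 4 bins of the Paneth cells of each library, with bars for the 95% interval of the counts and a line for each library. The IEC-KO lines run from 239.1 and 273.1 to 556.6 and 536.7, and the fl/fl lines from 51.7 and 52.6 to 74.2 and 82.3.

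The protein-coding genes next to the hosts were measured in the same sums. Znfx1, on the strand opposite to Zfas1 with an overlap of 82 bp, was at 1.21 and 1.15 CPM against 1.23 and 1.08 CPM in Paneth cells (log2 fold change −0.05, adjusted p = 0.857) and was not called in other cells (−0.20, adjusted p = 0.422). Trnau1ap, which lies 739 bp from Snhg12 on the other strand, was higher in Paneth cells (12.1 and 13.3 CPM against 16.2 and 15.2 CPM, 0.30, adjusted p = 0.00375) and was not called in other cells (0.10, adjusted p = 0.3). Both neighbours changed by far less than the host beside them. Mcmdc2, which overlaps Snhg6 by 127 bp on the other strand, had at most 3 UMIs in a library of either class and was not tested. Whether the counting used strand is not given in the sources used here, so reads within these overlaps cannot be assigned with certainty.

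Genes were compared with the summed hosts by log2(CPM + 1) over 23 sums of library by class (Paneth cells by the rule and the marker-named classes). Here CPM was taken over all UMIs, Defa included, without TMM. Most alike were Eif3c (Pearson r 0.973), Rps14 (0.950), Eprs (0.941), Hax1 (0.935) and Sars (0.932), among 1833 genes with a mean of at least 50 CPM. Zfas1 made up most of the host sum, with 1913 UMIs beside 164 of Snhg6 and 291 of Snhg12 in Paneth cells of fl/fl replicate 1. Eif3c is a subunit of initiation factor eIF3, Rps14 a small subunit protein, and Eprs and Sars are aminoacyl-tRNA synthetases. The median r was 0.861 over 82 ribosomal protein genes and 0.611 over all genes compared. Among the hosts themselves r was 0.807 for Snhg6 with Snhg12, 0.663 for Snhg12 with Zfas1 and 0.597 for Snhg6 with Zfas1. The sums share libraries and depth, and Defa UMIs in the total lower all other genes together in Paneth sums, so these values are descriptive.

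Cells near the limits of the class rule were read once, without a test. Just inside the Paneth limit (30% to 34% Defa) Zfas1 was at 68.4 CPM outside Defa in fl/fl and 297.4 in IEC-KO cells, and just outside it (26% to 30%) at 93.7 and 303.5. Snhg12 was at 11.4 and 57.6 inside and at 19.7 and 45.2 outside. Just inside the limit for other cells (16% to 20%) Zfas1 was at 84.2 and 339.1, and just outside it (20% to 24%) at 81.9 and 340.8. Snhg6 was at 8.14 and 18.9 inside the Paneth limit and at 9.87 and 21.4 outside it, and at 17.98 and 22.4 inside the limit for other cells and 21.8 and 21.3 outside it. Both libraries of a genotype were pooled in these bands. The fl/fl bands held 60 to 102 cells, with 6 to 12 UMIs of Snhg12 and 5 to 19 UMIs of Snhg6. In each of the 4 bands Zfas1 and Snhg12 stood higher in IEC-KO than in fl/fl cells, and Snhg6 did so in 3.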

How the data were processed

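Single cell RNA was measured with the 10x Genomics 3′ kit in 4 libraries, 2 for each genotype. The authors deposited raw UMI counts for 27998 genes in every cell barcode that passed cell calling, without normalization or cell type names, and the submitters' processing notes name Cell Ranger 2.1.1 and the mm10 build. Gene symbols and positions came from GENCODE M21 by gene ID (27645 of 27998 matched), which gives 22 Defa symbols where the tables have 13. No cell was left out and doublets were kept.

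Since cells are not replicates, each library gave 1 sum of UMIs per class, and these sums entered edgeR's quasi-likelihood test (edgeR 4.0.16, R 4.3.3, TMM, filterByExpr) with Benjamini-Hochberg adjustment over all genes tested at 0.05. Library totals ran from 87922473 to 127094508 UMIs, and the common dispersion in Paneth cells was 0.00298. For the comparison with ribosomal protein genes their summed UMIs were the only offset. Cells were clustered on 2000 variable genes (30 principal components, 20 neighbours, Leiden resolution 1). Defa genes, mitochondrially encoded genes and all genes of the lists, hosts included, were left out before these were chosen. A cluster took its name from the class with most markers in its 10 leading genes or, where these held no marker of any class, from the class with the largest share of its list counted (at least 25%). In both cases at least 3 markers had to count (a UMI in 25% of cells, 1.5 times the mean elsewhere). Intervals cover counting error only, at 95%.

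Named genes were the hosts, protein-coding genes within 5 kb, Slc7a5, Malat1, Neat1, the 2 largest and 2 smallest changes among called genes of each list in Paneth cells, and the 5 genes most like the summed hosts. A gene that this rule named is not reported here. The members and lists were chosen with earlier results of these data known. Alternatives were library size only, TMM without Defa and ribosomal protein genes, DESeq2 1.42.0, at least 10 UMIs in every library or no filter, the replicate number as a block, cells thinned to 2000 UMIs, 1 lower limit of 9670 UMIs, Defa limits of 40% and 10%, Paneth-like clusters, 1734 likely doublets left out, Leiden resolution 0.5 and each library left out. Added after seeing the data were the tables' own Defa symbols, leaving out the 2 clusters led in part by Trib3, and the rule together with a Paneth-like cluster. The test was checked on simulated counts.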

Additional observations from a re-analysis of the deposited data

Results flagged for a closer look

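The genotype effect differed between Paneth cells and other cells for 2 of the 3 hosts, by the test of the difference itself over 8 sums with library as a block. It was larger in Paneth cells by 0.71 on the log2 scale for Snhg6 (SE 0.12, adjusted p = 2.44e-06 in edgeR) and by 0.40 for Zfas1 (SE 0.06, adjusted p = 2.68e-07). Of 12984 genes, 12.6% had a larger and 12.0% a smaller effect in Paneth cells, and 80 of 82 ribosomal protein genes had a larger one. Per ribosomal protein UMI, Zfas1 changed by 1.07 in Paneth and 1.13 in other cells, and Snhg6 by 0.51 and 0.25. Paneth and other cells of a library were sequenced together, but the Paneth cells held more UMIs per cell in each library. Their median was 45862 and 52128 UMIs in fl/fl and 12548.5 and 18370 in IEC-KO libraries, and that of other cells 10580 and 11467 against 5685 and 8002. With all cells thinned to 2000 UMIs the difference of Snhg6 was 0.38 and was not called (adjusted p = 0.726). Thinning left 0 to 3 (replicate 1) and 1 to 5 (replicate 2) Snhg6 UMIs in each bin of ribosomal protein share of the fl/fl Paneth cells. The test thus had little power there, and the part of depth in the difference was not tested further.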

How the results depend on the processing

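In Paneth cells and in other cells each of the 3 hosts kept its direction and its call under 14 processing alternatives and with each of the 4 libraries left out. The log2 fold changes ranged in Paneth cells from 1.12 to 2.06 for Snhg6, 1.96 to 2.86 for Snhg12 and 1.77 to 2.62 for Zfas1, and in other cells from 0.46 to 0.81, 1.90 to 2.23 and 1.40 to 1.59. Against ribosomal protein genes Snhg12 and Zfas1 also kept their calls in both classes, but Snhg6 did not. In Paneth cells it lost its call when cells were thinned to 2000 UMIs (0.31, adjusted p = 0.488) and without IEC-KO replicate 2. In other cells it gained one with no filter on low counts (adjusted p = 0.0085), with Defa limits of 40% and 10% (0.33, adjusted p = 0.048), without fl/fl replicate 2 (0.38, adjusted p = 0.0114) and without IEC-KO replicate 1 (0.42, adjusted p = 0.000112), and its log2 difference there ran from 0.05 to 0.42 with 1 library left out. The difference of the genotype effect between classes for Snhg12 reversed to −0.17 and −0.19 under the settings named in the report, and with cells thinned only 1 host had a larger effect in Paneth cells. In enterocyte-like cells 1 host was called with at least 10 UMIs in every library, where Snhg12 was no longer tested. In tuft-like cells 1 was called with no filter on low counts, and 0 to 1 with a library left out. The ratio of highest to lowest bin of ribosomal protein share fell to 0.905 and 1.07 in the fl/fl libraries with thinned cells. Thinned sums hold fewer UMIs, and beyond this the cause of each change was not tested.

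Counts over all genes moved more than the hosts did. In Paneth cells (2686 higher, 2660 lower) they were 724 and 734 with thinned cells, and 1717 lower with DESeq2. In other cells (1982 and 1949) they were 1171 and 3454 by library size, 1213 and 1134 with DESeq2 and 864 and 806 thinned. For the difference between classes (1635 and 1556) they were 9879 and 60 by library size, 502 and 487 with DESeq2 and 292 and 344 thinned, 1009 smaller with 1 lower limit on UMIs and 989 larger without fl/fl replicate 1. In named classes DESeq2 called fewer genes, with 488 higher and 469 lower in goblet-like cells, 160 and 65 in TA-like cells, 74 and 23 in enterocyte-like cells and 26 higher in tuft-like cells.

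Same-numbered replicates did not deviate together (r 0.006 over 9073 genes in Paneth and 0.07 over 8746 in other cells), so no pairing by replicate number was detected. With so few libraries this cannot exclude one. With the replicate number as a block, 3 of 3 hosts were called higher in Paneth cells, 3 in other cells, 0 in tuft-like, 2 each in enterocyte-like and TA-like, and 3 in goblet-like cells. Shares of all genes called with the block are not given here. Without it 21.2% of genes were called higher in Paneth cells and 16.1% in other cells. In the named classes these shares were 0.921% (tuft-like), 2.01% (enterocyte-like), 4.14% (TA-like) and 9.94% (goblet-like). Against ribosomal protein genes in other cells the block made Snhg6 a call (0.24, adjusted p = 0.0096). Depth limited Snhg6 most, with 164 UMIs in each fl/fl sum of Paneth cells.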

Other observations

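Noncoding RNAs held in the nucleus, away from translation, were measured beside the hosts. Malat1, a nuclear speckle RNA, was at 1999 and 1962 CPM in fl/fl and at 3364 and 4294 CPM in IEC-KO Paneth cells (log2 fold change 0.95, SE 0.13, adjusted p = 1.2e-05 in edgeR), and it rose in other cells as well (0.68, adjusted p = 1.65e-05). Neat1, the RNA of paraspeckles, was at 37.9 and 39.4 CPM against 43.3 and 43.2 CPM in Paneth cells and was not called (0.16, adjusted p = 0.0536), nor was it in other cells (0.01, adjusted p = 0.916). Kcnq1ot1, an imprinted antisense RNA, was lower in Paneth (−1.38, adjusted p = 1.44e-05) and in other cells (−0.999, adjusted p = 1.22e-05). Of the 4 RNAs on this list 1 was called higher and 1 lower in Paneth cells, with a median of −0.19.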
